A study of Mus musculus with 37 samples.

Results

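Transcription factors that define the macrophage lineage, together with the interferon regulatory factors (IRFs) of macrophages, were followed in bone marrow-derived macrophages (BMDMs) over the response to a TLR4 agonist. The 9 genes, Spi1, Maf, Cebpa, Cebpb, Cebpd, Irf1, Irf4, Irf5 and Irf8, were taken by their symbols, with no threshold on a measured value, and all 9 were found among the 24016 genes of the deposited expression table. PolyA RNA was sequenced from wild-type (WT) and Arntl-/- cells at 0, 6, 24 and 48 h after addition of Kdo2 lipid A (KLA), the part of bacterial lipopolysaccharide that TLR4 recognizes. Arntl encodes Bmal1, a basic helix-loop-helix activator of the cellular clock, and the comparison addressed how its loss alters the macrophage transcriptome during inflammatory activation.

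The bone marrow donors were male mice of 6 to 9 weeks. Controls were C57BL/6J mice from a commercial breeder according to the description of the animals, whereas the account of the experiment calls them littermates; Arntl-/- mice were made on a C57BL/6 background. All marrow was grown for 6 days with M-CSF (20 μg/ml) before KLA, so every group, 0 h included, consisted of M-CSF-differentiated cells. The number of mice behind each culture was not given in the sources used here. Each of the 8 conditions had 1 library. Differences between single conditions therefore have no replicate check and were not tested. Only the mean genotype difference over the times was tested, with libraries of different times standing in for replicates. Outside that test, intervals at the 95% level (exact Poisson for a level, exact conditional binomial for a ratio) cover the counting of reads only.

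PU.1, the product of Spi1, and C/EBPα are the DNA-binding factors that commit progenitors to the myeloid lineage, and PU.1 keeps macrophage enhancers accessible. C/EBPβ and C/EBPδ are relatives of C/EBPα in the activated macrophage, where they act with NF-κB on cytokine genes, and c-Maf is a large bZIP factor of mature macrophages. IRFs bind interferon response elements and composite sites shared with PU.1, and they carry TLR and interferon signals to inflammatory and antiviral genes.

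RefSeq promoter windows (GRCm38.p6, 250 bases before to 50 bases after the transcription start) were found for 6 of the 9 genes (Cebpa, Cebpb, Irf1, Irf4, Irf5 and Irf8), and 3 were not matched (Spi1, Cebpd and Maf). The windows of Cebpb and Cebpa are shown because these genes differed the most between the genotypes at 0 h, and that of Irf1 because its level was lower in both 0 h libraries than in all 6 libraries after KLA under every scaling tried. Capitals mark the letters TTCNNNGAA, the pattern of STAT sites, which was in the Irf1 window, and GGG followed after any 5 bases by CC, a loose pattern of NF-κB sites, which was in all 3, on either strand; adjoining matches overlap and run together. The Cebpb and Cebpa windows held none of the STAT, E-box, ETS, IRF and C/EBP patterns searched, on either strand.
Cebpb, chr2:167688665-167688964, plus strand: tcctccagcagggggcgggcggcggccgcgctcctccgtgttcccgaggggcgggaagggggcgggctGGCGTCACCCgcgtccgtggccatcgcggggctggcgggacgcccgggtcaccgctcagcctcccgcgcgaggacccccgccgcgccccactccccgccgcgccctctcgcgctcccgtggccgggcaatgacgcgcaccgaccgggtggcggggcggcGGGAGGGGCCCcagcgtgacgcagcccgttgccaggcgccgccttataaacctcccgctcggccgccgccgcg
Cebpa, chr7:35119043-35119342, plus strand: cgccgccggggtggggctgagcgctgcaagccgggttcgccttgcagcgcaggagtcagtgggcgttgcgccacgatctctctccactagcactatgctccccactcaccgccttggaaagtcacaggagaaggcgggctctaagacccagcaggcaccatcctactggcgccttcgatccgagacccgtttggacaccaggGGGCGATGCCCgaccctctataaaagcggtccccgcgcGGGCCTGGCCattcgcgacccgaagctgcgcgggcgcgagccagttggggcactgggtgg
Irf1, chr11:53769764-53770063, plus strand: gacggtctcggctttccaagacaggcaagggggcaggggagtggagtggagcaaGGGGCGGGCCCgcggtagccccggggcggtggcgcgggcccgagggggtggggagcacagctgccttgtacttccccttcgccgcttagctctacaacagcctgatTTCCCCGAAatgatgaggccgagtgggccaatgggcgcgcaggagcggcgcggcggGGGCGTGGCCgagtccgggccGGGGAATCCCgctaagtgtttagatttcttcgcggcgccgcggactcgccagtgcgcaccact

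The canonical E-box CACGTG, to which Bmal1 binds with its partner Clock, was in 7.15% of all 32851 windows of the table and in none of the 6 windows. The variant CACGTT was in 4.68% of windows and in none of the 6. The ETS core GGAAGT, the pattern PU.1 recognizes, was in 23.8% of windows and in those of Irf5 and Irf1. TTCNNNGAA was in 8.30% of windows, in that of Irf1 at 90 to 82 bases before the start, and in 2 places in that of Irf8. The IRF pattern, GAAA followed after any 2 bases by GAAA (3.44% of windows), and the C/EBP pattern TTGCGCAA (0.183%) were in none of the 6. The NF-κB pattern was in all 6, as it was in 50.8% of all windows. Irf1 and Irf8 have a further window in the table, which is not counted here. These are matches of letters on both strands of a short window.

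The libraries held 8587560 to 27036783 reads on genes, with the WT 6 h library the deepest and the Arntl-/- 48 h library the shallowest. Levels are FPKM divided by a median-of-ratios size factor for each library (0.918 to 1.13), called scaled FPKM. Log2 ratios and changes are of scaled FPKM + 0.1, a gene is said to have risen or fallen, or to be higher or lower, past a line of 1.5-fold, and the 10656 genes with at least 100 scaled reads in any library were analyzed, among them 8 of the 9 factors (all but Irf4). Other ways of scaling the libraries (the values as deposited, upper-quartile scaling, and a correction of each library for expression level) are named where they end a result of a factor, beside some of the directions they turn, and for the gene lists beside some of the counts they move. Arntl itself had a scaled FPKM of 32.3 to 38.7 in the 4 WT libraries and of 11.3 to 20.2 in the 4 Arntl-/- libraries, so the groups did not overlap. The macrophage markers Csf1r, Cd68, Emr1, Itgam, Lyz2, Fcgr1, Cd14 and Mertk were all detected, with a summed scaled FPKM of 15088 to 37621 in WT and 16992 to 33590 in Arntl-/- libraries. Of the T cell markers, Cd3e and Cd3g were at 0 reads in all 8 libraries and the whole list of 5 summed to at most 2.89. The B cell list (5 genes) summed to 21.2 to 60.2 and the dendritic cell list (7 genes) to 18.3 to 70.0, with 1 gene of each analyzed. Cd79b was higher in Arntl-/- cells at 24 and 48 h (log2 ratio 0.59 and 0.60), beside 4.07% and 6.59% of all genes. Both fell short of the line with correction for expression level (0.53 and 0.55). Itgax was lower in Arntl-/- cells at 6 h (-0.94), beside 2.75%, and rose by 48 h in both genotypes (2.96 in WT and 2.29 in Arntl-/- cells), beside 13.6% and 15.8%. Neutrophil and granulocyte precursor markers (7 genes) summed to 491 to 928 in WT and 831 to 978 in Arntl-/- libraries, nearly all of it S100a8 and S100a9, with Mpo at 0 in all 8. At 48 h S100a8 alone made up nearly all of the sum, at 910 in WT and 905 in Arntl-/- cells. In the genotype comparison, 2 of the 3 analyzed granulocyte markers at 0 h and 3 of 3 at 6 h were at least 1.5-fold higher in Arntl-/- cells, beside 3.58% and 2.27% of all genes, as were 1 of 3 at 24 h and 0 of 3 at 48 h, beside 4.07% and 6.59%. At 48 h Ltf had 0 reads in both genotypes. S100a9 then had 7 reads in WT and 6 in Arntl-/- cells, so the count at 48 h rests on S100a8. Stromal markers (7 genes) summed to 394 to 1086 in WT and 306 to 671 in Arntl-/- libraries. Of the 5 analyzed, 2, 1, 2 and 3 were lower in Arntl-/- cells at 0, 6, 24 and 48 h, beside 2.06%, 2.75%, 3.22% and 5.88% of all genes, and 1 (Dcn, log2 ratio 1.21) was higher at 0 h, beside 3.58%. By 48 h 4 had risen in the WT and 5 in the Arntl-/- series, beside 13.6% and 15.8% of all genes. In bulk RNA, fewer cells of a type and less RNA per cell cannot be told apart, and the part of these lists in the results below was not tested.

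Expressed per length, the 9 mRNAs spanned a wide range of levels. Mean scaled FPKM over the 8 libraries was 1299 for Spi1, 927 for Cebpb, 809 for Maf, 528 for Irf8, 482 for Irf5, 291 for Cebpd, 243 for Irf1, 102 for Cebpa and 0.612 for Irf4. Spi1 and Cebpb overlapped in their ranges over the libraries, as did Cebpb and Maf, Irf8 and Irf5, and Cebpd and Irf1. Maf was above Irf8, Irf5 above Cebpd, Irf1 above Cebpa and Cebpa above Irf4 in the sense that the lowest library of the former exceeded the highest library of the latter. The mRNA of PU.1 was among the 260 most abundant of all 24016 genes in every library.

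**Figure D1:**
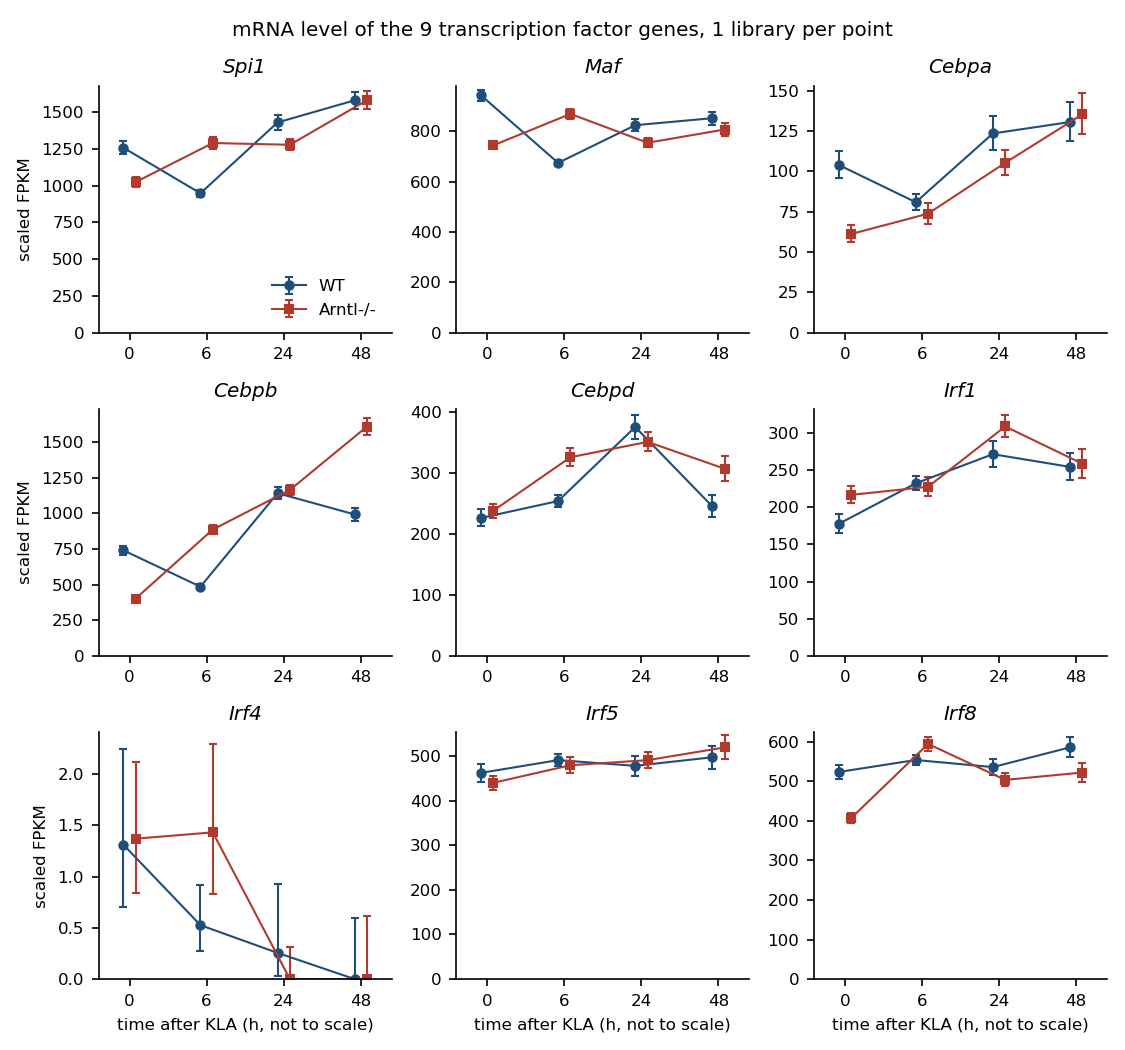
Scaled FPKM of each of the 9 genes (vertical axis, from 0) against time after KLA (horizontal axis, 0, 6, 24 and 48 h at equal spacing). Circles are WT and squares Arntl-/-, 1 library per point, and bars are exact Poisson 95% intervals for counting error only. Cebpb climbed from 402 to 1608 in Arntl-/- cells while the WT libraries lay between 485 and 1141, Irf5 stayed between 440 and 520 in all 8, and Irf4 was at 0 in both libraries at 48 h.

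Spi1 (NM_011355; mm9 chromosome 2, 90936954 to 90955913, plus strand; 5 exons) encodes PU.1, the ETS factor of the myeloid lineage. WT cells had a scaled FPKM of 1259, 948, 1430 and 1581 at 0, 6, 24 and 48 h, and Arntl-/- cells one of 1025, 1290, 1279 and 1582. The WT 6 h library was the lowest of the 8, although not after correction for expression level, and at 48 h the 95% interval of the ratio of Arntl-/- to WT was 0.949 to 1.06. The log2 ratio of Arntl-/- to WT was -0.30 at 0 h, 0.44 at 6 h and -0.16 at 24 h, all under 1.5-fold. Its mean over the 4 times was -0.0035, which turned to 0.0062 in the values as deposited and to 0.011 with correction for expression level. Of its 4 comparisons between genotypes and 6 against 0 h, 1 passed 1.5-fold: Spi1 rose 1.54-fold (1.47 to 1.62) between 0 and 48 h in Arntl-/- cells. This log2 change of 0.63 was 0.45 in the values as deposited and 0.06 after correction for expression level, both short of the line.

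Maf (NM_001025577; chromosome 8, 118227153 to 118230794, minus strand; 1 exon) encodes c-Maf. Its scaled FPKM over the 4 times was 944, 675, 825 and 853 in the WT series and 745, 870, 755 and 808 in the Arntl-/- series. As for Spi1, the WT 6 h library was the lowest of the 8, again not after correction for expression level, and no comparison of Maf between genotypes or against 0 h reached 1.5-fold. The largest log2 difference from 0 h was -0.48 in WT cells at 6 h, against 0.22 in Arntl-/- cells. GENCODE places Gm15655 on the opposite strand over part of the Maf exon, and reads were counted on both strands, so reads of the pair cannot be separated there.

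Cebpa (NM_001287523; chromosome 7, 35904312 to 35906947, plus strand; 1 exon) encodes C/EBPα, which acts upstream in the commitment of myeloid progenitors. Over the 4 times, WT cells had 104, 80.9, 124 and 131 and Arntl-/- cells 61.2, 73.8, 105 and 135 scaled FPKM. The Arntl-/- 0 h library was the lowest of the 8, 1.70-fold below WT (log2 ratio -0.77; ratio 0.588, 95% interval 0.521 to 0.663). The 2 genotypes met by 48 h (log2 ratio 0.05). Cebpa rose in Arntl-/- cells 1.72-fold by 24 h and 2.21-fold (1.95 to 2.52) by 48 h, each library above the one before, while in WT cells its log2 differences from 0 h were -0.36, 0.25 and 0.33.

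Cebpb (NM_009883; chromosome 2, 167514415 to 167515932, plus strand; 1 exon) encodes C/EBPβ, a factor of inducible cytokine and acute-phase genes, and showed the widest differences of the 8 factors analyzed. WT libraries held 740, 485, 1141 and 992 scaled FPKM in the order of the times. Arntl-/- libraries held 402, 886, 1164 and 1608 in the same order. Arntl-/- cells were therefore lower at 0 h, higher at 6 h, level at 24 h and higher again at 48 h. They were 1.84-fold below WT at 0 h (log2 ratio -0.88; ratio 0.543, 95% interval 0.511 to 0.577), 1.83-fold above at 6 h (log2 ratio 0.87; 1.74 to 1.91) and 1.62-fold above at 48 h (log2 ratio 0.70; 1.53 to 1.72). With correction for expression level the 6 h ratio was 0.53, short of the line, and the other 2 kept their side. At 24 h the log2 ratio was 0.03. Because the sign turned, the mean log2 ratio over the 4 times was only 0.18. By rank among the 10656 genes analyzed, Cebpb was the 61st from the lowest ratio at 0 h and the 44th from the highest at 6 h.

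The course of Cebpb after KLA also differed between the genotypes. In WT cells it fell 1.53-fold by 6 h and then stood 1.54-fold above 0 h at 24 h. The fall, -0.61 on the log2 scale, lay near the line, and it was short of it in the values as deposited (-0.45), with upper-quartile scaling (-0.57) and with correction for expression level (-0.27). The 24 h change of 0.62 was 0.53 with the last of these. In Arntl-/- cells it rose 2.20-fold by 6 h, 2.90-fold by 24 h and 4.00-fold (3.78 to 4.24) by 48 h. The log2 change at 6 h was 1.75 greater in Arntl-/- than in WT cells, which ranked 11th from the highest of the 10656 genes. With correction for expression level the difference was 1.23 and with the values as deposited 1.53. A fall in WT with a rise in Arntl-/- cells, both past 1.5-fold, was met by 0.244% of the genes analyzed, and by Cebpb alone among the 8 factors, but by none of them under the 3 scalings in which the WT fall missed the line. The overlapping gene Tmem189 lies on the opposite strand at this locus, and reads were counted on both strands, so its reads there cannot be separated from those of Cebpb.

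Cebpd (NM_007679; chromosome 16, 15887379 to 15889638, plus strand) encodes C/EBPδ, an early responder to inflammatory stimuli. Its scaled FPKM ran 227, 254, 376 and 245 through the WT series and 238, 326, 352 and 307 through the Arntl-/- series. Both 0 h libraries were below all 6 libraries after KLA, which did not hold under the 3 other scalings, and both genotypes were highest at 24 h. It rose 1.66-fold (1.53 to 1.80) by 24 h in WT cells, and the same comparison in Arntl-/- cells gave 1.47-fold (1.38 to 1.57), just inside the line. The log2 ratio of the genotypes was 0.07, 0.36, -0.10 and 0.32, none past 1.5-fold. The downstream end of Cebpd overlaps Spidr on the opposite strand, whose own scaled FPKM was at most 104.

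Irf1 (NM_008390; chromosome 11, 53583516 to 53590826, plus strand; 10 exons) encodes an activator that interferon-γ and NF-κB induce. WT cells had 177, 232, 271 and 254 scaled FPKM over the 4 times, against 217, 228, 309 and 259 for Arntl-/- cells. Both 0 h libraries were again below all 6 KLA libraries, and both genotypes were highest at 24 h. In WT cells Irf1 rose 1.53-fold (1.39 to 1.68) by 24 h, and in Arntl-/- cells the same ratio was 1.42 (1.33 to 1.53). The WT log2 change of 0.61 was 0.58, just short of the line, in the values as deposited. At 6 h the log2 change was 0.39 in WT and 0.07 in Arntl-/- cells, where the 0 h level was the higher of the pair (log2 ratio 0.29). Gm17334 lies on the opposite strand within the Irf1 locus, with the same limit on its reads.

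Irf5 (NM_012057; chromosome 6, 29476625 to 29487320, plus strand; 9 exons) encodes a factor that MyD88 activates downstream of TLRs. Over the 4 times the WT libraries held 462, 491, 478 and 497 and the Arntl-/- libraries 440, 480, 491 and 520 scaled FPKM. The libraries lay within 1.18-fold of each other. The SD of its log2 level over the 8 libraries was 0.07, and 1.05% of the genes analyzed had a smaller one. Both 0 h libraries were below the other 6 here too, by a small margin (462 against 478 at the nearest) that was lost in the values as deposited and with correction for expression level.

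Irf8 (NM_008320; chromosome 8, 123260276 to 123280592, plus strand; 9 exons) encodes the partner of PU.1 in monocyte development. The WT series ran 524, 554, 536 and 586 scaled FPKM and the Arntl-/- series 407, 595, 504 and 522. The Arntl-/- 0 h library stood apart below the other 7, and Irf8 had a log2 change at 6 h of 0.55 (ratio 1.46, 95% interval 1.40 to 1.53) in Arntl-/- cells against 0.08 in WT cells. The log2 ratio of the genotypes was -0.36 at 0 h and between -0.17 and 0.10 later. The value of 0.10, at 6 h, turned in the values as deposited, where Arntl-/- cells were the lower (FPKM 609 against 623). GENCODE places Irf8 inside a longer gene model, Gm20388, on the same strand.

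Irf4 (NM_013674; chromosome 13, 30841127 to 30858796, plus strand; 9 exons) encodes a factor of lymphocytes and of alternatively activated macrophages. It rested on 13, 12, 2 and 0 reads in the WT series and on 20, 17, 0 and 0 in the Arntl-/- series, a scaled FPKM of at most 1.43. In both genotypes its reads were at 0 h and 6 h, with at most 2 afterwards. The ratio of 6 h to 0 h was 0.401 (95% interval 0.167 to 0.952) in WT and 1.05 (0.514 to 2.10) in Arntl-/- cells. Taking 3 reads per library as the limit of a count of 0 and the 0 h reads as counted, it was at least 2.73-fold lower than at 0 h in WT cells at 48 h, and at least 5.35-fold and 2.74-fold lower in Arntl-/- cells at 24 and 48 h. With the counting error of the 0 h reads as well, the 95% upper limits of these ratios were 0.521, 0.253 and 0.492. In WT cells at 24 h the ratio was 0.195 (0.0213 to 0.860). At 6 h the ratio of Arntl-/- to WT was 2.72 (1.23 to 6.25), and at 0 h 1.04 (0.494 to 2.28).

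The factors were then counted as a set, between the genotypes first. At 0 h, 2 of the 8 factors analyzed (Cebpa and Cebpb) were at least 1.5-fold lower in Arntl-/- cells, beside 2.06% of all genes, and none was higher, beside 3.58%. Of the 8, 6 were lower at any size (5 in the values as deposited and with correction for expression level, where Irf5 was higher), and the median log2 ratio of the 8 was -0.32 (-0.11 with that correction), compared with -0.01 over all genes analyzed. At 6 h, Cebpb alone was past the line, higher, beside 2.27% of genes (2.75% were lower), and the median log2 ratio of the 8 was 0.23, which turned to -0.03 with correction for expression level. At 24 h no factor passed in either direction (4.07% of genes higher and 3.22% lower), with a median of -0.09 that turned to 0.02 with the same correction. At 48 h, Cebpb alone was higher, beside 6.59% of genes, and none was lower, beside 5.88%. The Arntl-/- 0 h library held the lowest level of the 8 libraries for Cebpa, Cebpb, Irf8 and Irf5 (for Irf5 not in the values as deposited or after correction for expression level), and the WT 6 h library that for Spi1 and Maf except after correction for expression level. The shares of all genes lowest in these libraries were not counted.

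The mean genotype difference over the 4 times was tested with limma, in a fit of genotype plus time across the 10656 genes that left 3 residual degrees of freedom. Libraries of different times stand in for replicates there, so a difference that varied with time counted as error. None of the 8 factors passed an adjusted p of 0.05 and 0 had an unadjusted p under 0.05, beside 0.282% of all genes (17 genes or 0.16% higher and 13 or 0.122% lower in Arntl-/- cells) and 8.61% unadjusted. Cebpa, lower at 3 of the 4 times, had the lowest p of the 8, with a mean log2 ratio of -0.27 (SE 0.13, 95% interval -0.56 to 0.02, limma adjusted p = 0.601). For Cebpb, higher at 3 of the 4 times, the mean was 0.18 with an interval of -0.32 to 0.68 (limma adjusted p = 0.930), and for Irf5 the interval was -0.18 to 0.18. Arntl itself was lower at 4 of 4 times, with a mean of -1.16 (limma adjusted p = 0.0272, and 0.0532 in the values as deposited). No factor passed under the 3 other scalings, the lowest adjusted p being 0.516 with correction for expression level.

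**Figure D2:**
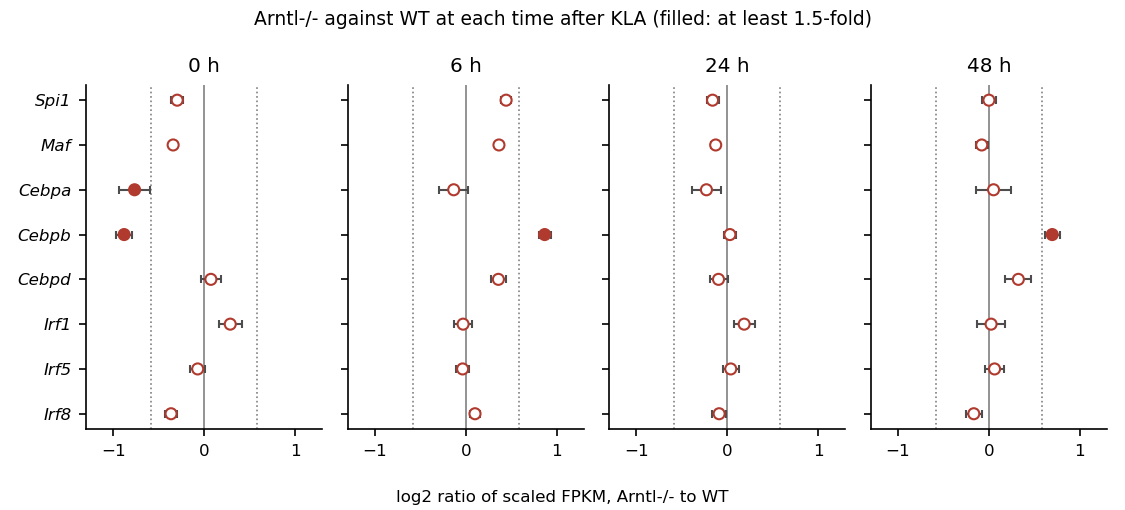
Log2 ratio of scaled FPKM in Arntl-/- to WT cells (horizontal axis) for the 8 genes analyzed, 1 panel per time after KLA. Bars are 95% intervals for counting error only, dotted lines mark 1.5-fold, and filled points lie past it: Cebpa and Cebpb on the left at 0 h, and Cebpb on the right at 6 h (0.53, inside the line, after correction for expression level) and 48 h.

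Changes after KLA were counted against the 0 h library of the same genotype, which the 3 comparisons of a genotype share. In WT cells, 1 of 8 (Cebpb) fell at 6 h, beside 3.62% of genes, and none rose, beside 5.66%. By 24 h 3 of 8 (Cebpb, Cebpd and Irf1) had risen, beside 8.84%, and none had fallen, beside 8.92%. Of these, Irf1 missed the line as deposited and Cebpb with correction for expression level. None passed by 48 h, when 13.6% of genes were higher and 15.3% lower. Among Arntl-/- libraries, 1 of 8 (Cebpb) rose by 6 h, beside 3.38%, 2 of 8 (Cebpa and Cebpb) by 24 h, beside 8%, and 3 of 8 (Spi1, Cebpa and Cebpb) by 48 h, beside 15.8% (2 of 8, without Spi1, as deposited and with the correction), while none fell, beside 3.59%, 9.69% and 17.3%. At any size, all 8 were above 0 h at every time in Arntl-/- cells, as were 29.5% of genes, except that Maf was below 0 h at 24 and 48 h in the values as deposited (-0.05 and -0.06) and with correction for expression level (-0.12 and -0.29), and, at 24 h, with upper-quartile scaling. Their median log2 changes there were 0.30, 0.41 and 0.36, the last of which was 0.19 as deposited and 0.17 with the correction. In WT cells the medians were -0.14, 0.22 and 0.25. The first turned to 0.02 as deposited and to 0.14 with the correction, and the last was 0.11 and 0.02. Maf was below 0 h at each time in WT cells. Cebpa, Cebpb and Irf5 were higher in each Arntl-/- library than in the one before it, as were 12.2% of all genes, although Irf5 was not in the values as deposited or with correction for expression level.

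At 6 h the log2 change after KLA differed by 1.75 for Cebpb, 0.74 for Spi1, 0.71 for Maf and 0.63 for Cebpa between Arntl-/- and WT cells, all greater in Arntl-/- cells and all past 1.5-fold, as for 8.3% of genes. In the values as deposited those of Spi1 (0.53), Maf (0.49) and Cebpa (0.42) were short of the line. The difference was 0.47 for Irf8 (0.25 as deposited and 0.14 with correction for expression level), 0.29 for Cebpd (0.07 and 0.15), 0.04 for Irf5 (-0.18 and -0.26) and -0.32 for Irf1 (-0.53 and -0.40). At 24 h only that of Cebpb (0.91) passed 1.5-fold, beside 4.55% of genes. At 48 h those of Cebpb (1.58) and Cebpa (0.82) did, beside 7.63%. Both 0 h libraries stood below all 6 KLA libraries for Cebpd, Irf1 and Irf5, beside 8.91% of genes, and for Irf1 alone in the values as deposited and with correction for expression level.

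**Figure D3:**
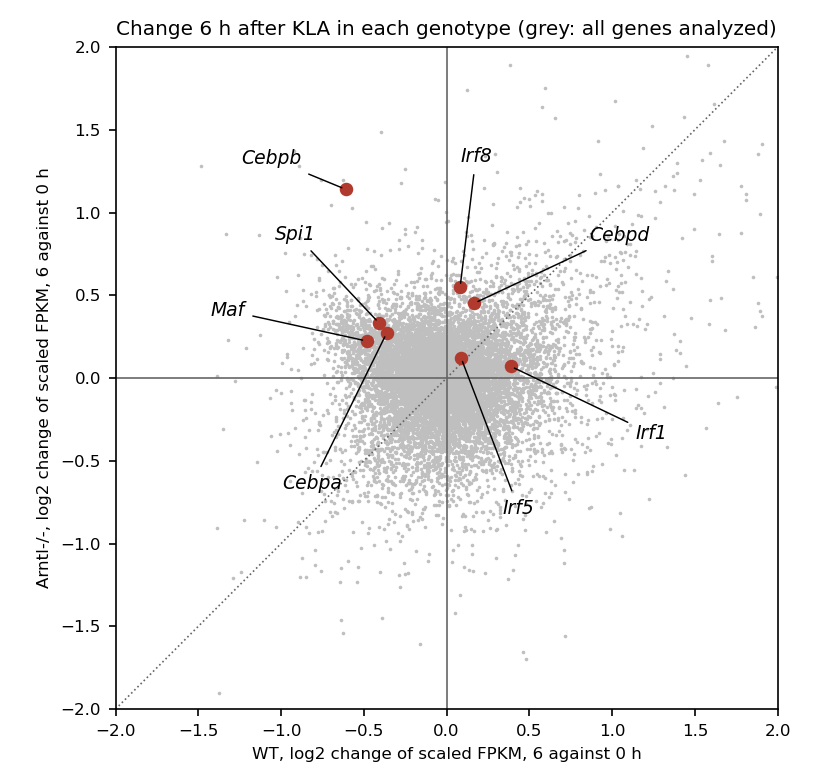
Log2 change of scaled FPKM from 0 to 6 h after KLA in WT (horizontal axis) and Arntl-/- cells (vertical axis). Each grey point is 1 of the 10656 genes analyzed (32 lie outside the axes), red points are the 8 factors, and the dotted line marks equal change. Cebpb lies at -0.61 and 1.14, with Spi1, Maf and Cebpa also left of 0 in WT (except Spi1, at 0.04, after correction for expression level) and above 0 in Arntl-/- cells.

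The density of reads moved with the 6 h values. Genes were grouped by reads per exon base in the WT 6 h library, the deepest, and the median Arntl-/- to WT log2 ratio at 6 h was -0.08 for genes under 0.5 reads per base, 0.21 for 2 to 3, 0.33 for 3 to 4 and 0.45 above 4. Spi1, at 4.63 reads per base, had a ratio of 0.44, and Maf, at 3.30, a ratio of 0.37, each close to the median of its range. Cebpb, at 2.37, had a ratio of 0.87, whereas Irf5, at 2.40, and Irf8, at 2.71, were at -0.03 and 0.10. Correction for expression level left a difference in the 6 h change of 0.08 for Spi1 and 0.21 for Maf, 0.71 for Cebpa and 1.23 for Cebpb. Macrophage markers had a median log2 ratio of 0.40 at 6 h and of -0.24 at 0 h, which turned to -0.13 and 0.06 with that correction. WT at 6 h was the lowest of the 4 WT libraries for Spi1, Maf, Cebpa and Cebpb, as for 25.8% of genes, and for Cebpa and Cebpb alone of the 8 after the correction. The part of read density in these values was not otherwise tested.

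**Figure D4:**
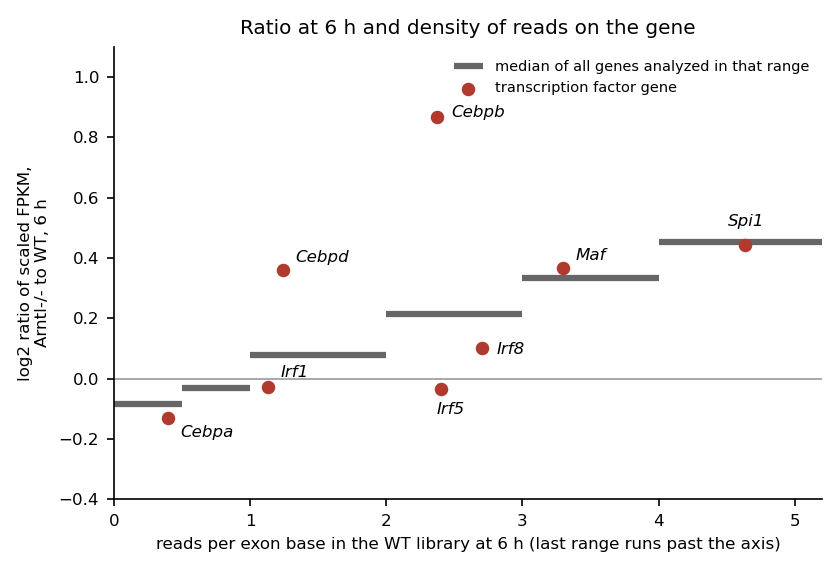
Log2 ratio of scaled FPKM in Arntl-/- to WT cells at 6 h (vertical axis) against reads per exon base in the WT 6 h library (horizontal axis). Red points are the 8 factors, and grey bars are the medians of all genes analyzed in each range. Spi1 and Maf lie by the bars, Cebpb at 0.87 lies above the bar of its range at 0.21, and Irf5 and Irf8 lie below it.

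Relatives of the factors outside the set were counted from lists of their families, and their known targets from further lists. The counts of all these lists stand beside the following shares of all genes. Between the genotypes, 3.58%, 2.27%, 4.07% and 6.59% were higher and 2.06%, 2.75%, 3.22% and 5.88% lower in Arntl-/- cells over the 4 times. After KLA, 5.66%, 8.84% and 13.6% rose and 3.62%, 8.92% and 15.3% fell in the WT series, and 3.38%, 8% and 15.8% rose and 3.59%, 9.69% and 17.3% fell in the Arntl-/- series. In the IRF family, Irf7, the factor that amplifies type I interferon, rose in both genotypes: its scaled FPKM ran 237, 406, 735 and 1172 through the WT series and 282, 499, 790 and 1189 through the Arntl-/- series. Of the 4 other IRFs analyzed (Irf2, Irf3, Irf7 and Irf9), 2 rose at each of 6, 24 and 48 h in the WT series and 1 at each time in the Arntl-/- series, and none differed 1.5-fold between the genotypes at any time. Irf9, the DNA-binding part of the interferon-activated complex ISGF3, was the other that rose in WT cells, with a log2 change of 0.70 in WT and 0.34 in Arntl-/- cells at 6 h.

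In the C/EBP family, 4 further genes were analyzed (Cebpe, Cebpg, Cebpz and Ddit3). None passed 1.5-fold at 6 h in either genotype. Cebpe, a factor of granulocyte maturation, held 14.9, 18.1, 25.2 and 41.9 scaled FPKM in the WT series, where it rose by 24 and 48 h, and 21.8, 23.3, 21.0 and 20.8 in the Arntl-/- series. At 48 h it was the only one of the 4 past 1.5-fold between genotypes (log2 ratio -1.01). Of the MAF family, Maff, a small MAF protein without an activation domain, rose at 6 h in both genotypes (log2 change 0.99 and 0.70) and had log2 changes of 0.71 and 0.84 in WT and of 0.00 and -0.14 in Arntl-/- cells at 24 and 48 h. It was lower in Arntl-/- cells at 24 h (log2 ratio -0.65) and 48 h (-0.92), and Mafg and Mafk passed in no comparison. Of 8 ETS factors, Spic, a factor of iron-recycling macrophages, rose by 24 and 48 h in WT cells and was lower in Arntl-/- cells at 48 h (-1.31), and Fli1 fell by 48 h in Arntl-/- cells (-0.68); no other passed.

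**Figure D5:**
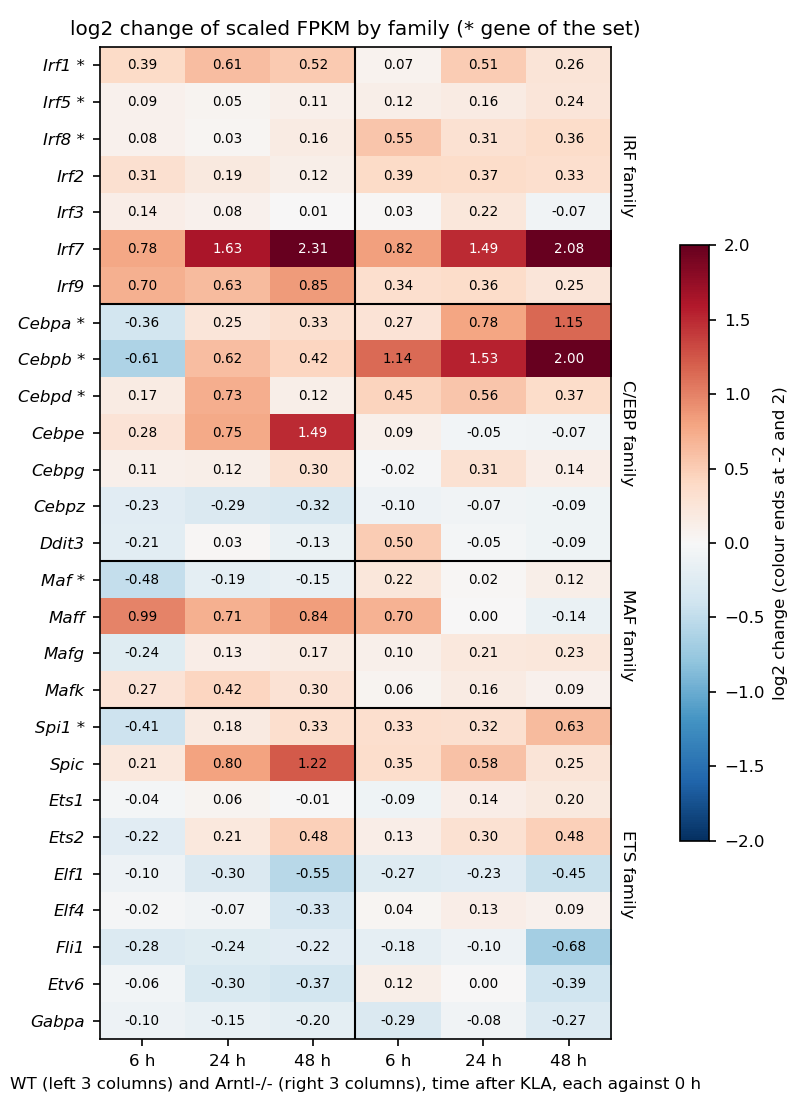
Log2 change of scaled FPKM against 0 h (printed and coloured, red for higher) at 6, 24 and 48 h after KLA in WT (left) and Arntl-/- cells (right), for analyzed genes of the IRF, C/EBP, MAF and ETS families. Asterisks mark the 8 factors of the set. Irf7 reaches 2.31 in WT and 2.08 in Arntl-/- cells at 48 h, and Cebpb stands at 0.62 in WT and 1.53 in Arntl-/- cells at 24 h.

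Other myeloid lineage factors and IRF partners, 14 of them analyzed, had 2 higher and none lower in Arntl-/- cells at 0 h: Batf2, a partner of IRF8 and IRF1 (log2 ratio 1.52, on 23 WT and 98 Arntl-/- reads), and the immediate-early factor Egr1 (0.65, and 0.58 with correction for expression level). At 6 h 1 was higher and 1 lower, at 24 h 1 higher, and at 48 h 2 higher and 3 lower. With the correction none was lower at 6 h, where Egr2 went from -0.71 to -0.58, and 1 was higher at 48 h. Nfil3, a bZIP repressor of the clock output, was higher at 6 and 48 h (0.75 and 1.16). After KLA 1, 2 and 6 of the 14 rose by 6, 24 and 48 h in the WT series, against 3, 2 and 3 in the Arntl-/- series, with at most 2 falling in any comparison. In the values as deposited, 4, 2 and 3 rose in the WT and 2, 2 and 2 in the Arntl-/- series, so the order of the series at 6 h depended on the scaling. Among 9 interferon receptors and signalling genes around the IRFs, none differed 1.5-fold between the genotypes at any time, while 1, 3 and 2 rose in WT and 2, 3 and 4 in Arntl-/- cells at 6, 24 and 48 h (2, 3 and 2 and 1, 3 and 2 as deposited, and none in Arntl-/- cells at 6 h with the correction). Stat2, the partner of Irf9 in ISGF3, had log2 changes of 0.78, 0.73 and 1.37 in WT and 0.65, 1.05 and 1.21 in Arntl-/- cells. Ifnb1 had too few reads to be analyzed.

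Genes known to need PU.1 or C/EBP factors in macrophages, 13 analyzed and 5 of them also among the macrophage markers, had a median genotype log2 ratio of -0.24, 0.41, -0.11 and -0.06 at 0, 6, 24 and 48 h, each of which changed sign with correction for expression level (0.12, -0.08, 0.12 and 0.0015). They had 1 higher and 1 lower at 0 h, and 1 higher at each of 6, 24 and 48 h. Chil3, a chitinase-like protein of alternatively activated macrophages, was higher in Arntl-/- cells at all 4 times (log2 ratio 1.27 at 24 h to 2.43 at 48 h). Its ratio at 48 h rested on 6 WT and 32 Arntl-/- reads. Of the granulocyte markers, S100a9 had log2 ratios of 1.04 at 6 h to 1.32 at 24 h over the first 3 times and of -0.17 at 48 h, and changed by -4.00 in WT and -5.47 in Arntl-/- cells by 48 h, and Ltf had ratios of 1.16 and 1.25 at 0 and 6 h. At 48 h S100a9 rested on 7 WT and 6 Arntl-/- reads. S100a8 went the other way over time, by 1.56 in WT and 1.17 in Arntl-/- cells by 48 h, with genotype ratios of 0.38, 0.87, -0.06 and -0.01. Their part in the Chil3 values was not tested. Marco, a scavenger receptor, was the gene that was lower at 0 h (-0.81, and -0.52 with the correction). After KLA 0, 4 and 8 rose in WT and 1, 6 and 8 in Arntl-/- cells at 6, 24 and 48 h, which became 0, 3 and 3 and 0, 3 and 4 with the correction. In WT cells at 6 h 2 fell, Marco (-0.61) and the integrin Itgam (-0.59), neither of them past the line under the 3 other scalings, and Chil3 fell by 48 h in both genotypes (-2.93 and -2.50). Il6 and G0s2 had too few reads.

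Of 10 genes known to respond to IRF1, IRF5 or IRF8, 3, 1, 2 and 3 were higher in Arntl-/- cells at 0, 6, 24 and 48 h and none was lower at any time (1 was at 6 h in the values as deposited). Nos2, the inducible nitric oxide synthase, held 11.9, 105, 115 and 273 scaled FPKM in the WT series and 31.5, 135, 274 and 523 in the Arntl-/- series, a log2 ratio of 1.40, 0.37, 1.25 and 0.94. Gbp2, an interferon-induced GTPase, was higher at 0 h (0.70) and at 24 h had a log2 ratio of 0.02. After KLA 4, 4 and 5 of the 10 rose in WT and 3, 3 and 6 in Arntl-/- cells, and with correction for expression level 3, 4 and 4 did in the WT series against 3, 4 and 5 in the Arntl-/- series, where 1 also fell at 48 h. B2m, the light chain of MHC class I, went from 0.84 to -0.13 with the correction at 48 h in Arntl-/- cells. Ciita and Il12b had too few reads. Of 5 genes known to respond to c-Maf or IRF4, 2 (Cd163 and Folr2) were lower in Arntl-/- cells at 0 and 6 h (Folr2, at -0.60 at 0 h, missed the line under the 3 other scalings), 1 (Folr2) was lower at 24 h, and 2 (Cd163 and F13a1) were higher at 48 h. Cd163 at 48 h rested on 20 WT and 52 Arntl-/- reads. After KLA 0, 2 and 3 of the 5 rose and 1, 0 and 2 fell by 6, 24 and 48 h in the WT series, against 0, 3 and 3 that rose and 1 that fell at each time in the Arntl-/- series. The fall at 6 h in the WT series, of Mrc1 (-0.74), missed the line as deposited (-0.58) and with the correction (-0.49). The rise of Cd163 at 24 h in the Arntl-/- series (0.60) missed it as deposited (0.53) and with upper-quartile scaling (0.58). Il10 and Retnla were not analyzed, Retnla being at 0 reads in all 8 libraries. Mrc1, the mannose receptor, had log2 changes of -0.74, -0.54 and -1.35 in WT and -0.45, -0.65 and -1.47 in Arntl-/- cells.

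For each factor the genes of most similar pattern were found by Pearson's r of log2 level over the 8 libraries, among 10655 others (10656 for Irf4). They were Chmp4b (r = 0.997), Hnrnpul2 and Aes for Spi1, Eif3b (0.971), Larp4b and Clip1 for Maf, and Flywch1 (0.972), 4632428N05Rik and Lamc1 for Cebpa. For Cebpb they were Alkbh5 (0.980), Tnfaip8l2 and Zbtb20, and for Cebpd Igsf6 (0.961), Eftud1 and Rxrb. Those of Irf1 were Camta2 (0.988), Ssh3 and Snx27, those of Irf5 Scarf1 (0.983), Dlg4 and Sec23a, and those of Irf8 Ccdc117 (0.887), Ehd1 and Tgfbr3. Zdhhc21 (0.987), Tmem120b and Cdk4 were most similar to Irf4, whose pattern is that of its reads at 0 and 6 h. Within the set, Spi1 correlated with Cebpb at r = 0.889 and with Cebpa at 0.832, Cebpa with Cebpb at 0.829 and Cebpd with Irf1 at 0.744, while Maf with Irf1 gave -0.394. All points are the same 8 libraries, whose depth also differed, and the r of each most similar gene is the highest of all those compared.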

How the data were processed

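PolyA RNA libraries were made with the NEBNext Ultra RNA kit, 1 per condition. The authors mapped reads with STAR to mm9 and quantified genes with HOMER over exons, on both strands, from 1 transcript per gene, and deposited FPKM per 10000000 reads. The file header also names a setting of 3 tags per position, but 20 to 100 genes per library held more than the 6 reads per exon base that this would leave on both strands, so how it acted on these values is not known. The 24016 genes of the table were read after 1 line without a gene was left out, and 4 of its 12 value columns, for times not among the samples, were not used. Low values were whole multiples of 1 read within 0.05 reads, so reads were recovered and give the depth. Their precision enters the 95% intervals, which cover counting error only, because PCR copies are not independent molecules.

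Each library's FPKM was scaled by its median-of-ratios factor, and log2(scaled FPKM + 0.1) was compared for genes with at least 100 scaled reads in any library. This log2 scale understates changes of low genes. Single comparisons, with 1 library on each side, were given with no test, and the mean genotype difference over the times was tested with limma 3.58.1 (genotype plus time, trended prior, Benjamini-Hochberg adjustment over all genes analyzed). The share of all genes past 1.5-fold stands beside the counts of the factors and, given once, of the lists. The members and lists were chosen with earlier results of these data known. Named genes were the 9 factors, the 3 most similar genes of each, and at most 4 of each list of relatives and targets, beside those named as too low to analyze; a list gene outside the largest and smallest mean difference was chosen after its values were seen. Emr1, Chil3 and Kdm6b stand under these symbols. The alternatives tried were no scaling, upper-quartile scaling, pseudocounts of 1 and 0.01, a lowess correction (fraction 0.3) of each library against mean log2 level, a 2-fold line, other filters and leaving out a time. Genomic positions are mm9 as deposited, overlaps come from GENCODE vM1, and promoters from RefSeq (GRCm38.p6). Intervals came from scipy 1.17.1 and the lowess fit from statsmodels 0.14.6, with pandas 2.3.3, numpy 2.4.6 and matplotlib 3.10.9 under Python 3.11.15, and the scripts were tested on simulated data. The ChIP libraries of the series were not analysed here, and some list genes are not reported here.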

Additional observations from a re-analysis of the deposited data

Results flagged for a closer look

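For 4 factors the log2 change after KLA had opposite signs in the genotypes, the WT library lying below its 0 h library and the Arntl-/- library above it. At 6 h the change in Arntl-/- minus that in WT cells was 0.74 for Spi1 (PU.1), 0.63 for Cebpa, 1.75 for Cebpb and 0.71 for Maf. With correction for expression level these were 0.08, 0.71, 1.23 and 0.21, and the WT change of Spi1 turned to 0.04, so that its signs were no longer opposite. At 48 h it was 0.26 for Maf, where the Arntl-/- library was below 0 h in the values as deposited and with correction for expression level. Each value rests on 4 single libraries, and the difference was not tested. The 6 h differences as scaled were past 1.5-fold, as for 8.3% of genes, and the share of all genes with opposite signs was not counted. The same WT 6 h library enters the first 4 values, and it was the deepest of the 8.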

How the results depend on the processing

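The 14 values of single factors past 1.5-fold, over the 10 comparisons, kept their direction under 5 alternatives (other scalings and pseudocounts), and 11 stayed past the line in the values as deposited, 13 with upper-quartile scaling, 14 with either pseudocount (1 and 0.01) and 10 with correction for expression level. The count of factors past the line between genotypes at 0 h went from 2 to 0 with a 2-fold line, that at 6 h from 1 to 0 with a 2-fold line and with correction for expression level, and that at 48 h from 1 to 0 with a 2-fold line. In WT cells the count at 6 h went from 1 to 0 in the values as deposited, with upper-quartile scaling, with correction for expression level and with a 2-fold line, and that at 24 h from 3 to 0 with a 2-fold line and to 2 as deposited and with the correction. In Arntl-/- cells the count at 24 h went from 2 to 1 with a 2-fold line, and that at 48 h from 3 to 2 as deposited, with the correction and with a 2-fold line. The share of genes past 1.5-fold per comparison and direction was 2.06% to 17.3%, against 8.77% to 22.0% for the 15840 genes with a scaled FPKM of at least 1 and 6.74% to 16.6% for all 24016 genes. Without scaling, the median of all genes shifted by more than 0.1 in the genotype ratio at 6 h (-0.13), in the WT change by 6 h (0.13) and by 48 h (-0.13) and in the Arntl-/- change by 48 h (-0.18). The mean genotype ratio over the times moved beyond its counting error for 5 of the 9 factors without the 6 h libraries and for 2 without those at 48 h. The fit of genotype plus time, which pairs the libraries of a time, was chosen after seeing the data, and labels do not say whether those libraries share a culture or day. Depth limits Irf4 alone of the 9, whose levels rest on at most 20 reads.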
